A study of Mus musculus with 21 samples.

Results

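The genes described here are Fga, Fgb and Fgg, which encode the alpha, beta and gamma chains of fibrinogen. They were chosen by name as the full set of fibrinogen chain genes, and they are 3 of the 50406 mouse genes counted in the series. The series holds 21 RNA-Seq libraries in 8 groups from adult male wildtype mice: neutrophils (PMNs), labelled as taken from blood, and renal tubular epithelial cells (TECs) from the kidney, both collected 24 hours after surgery. Each mouse received either remote ischemic preconditioning (RIPC, inflation of a cuff around a hind limb before surgery) or a control procedure with a cuff at a pressure that leaves the limb perfused, followed by either a sham operation or ischemia-reperfusion injury (IRI, in which both renal pedicles were clamped and then released). TECs comprised 3 libraries of sham control, 3 of sham RIPC, 2 of IRI control and 3 of IRI RIPC. PMNs comprised 2 of sham control, 3 of sham RIPC, 2 of IRI control and 3 of IRI RIPC. The libraries held between 20881334 and 51624602 estimated reads, summed over 2 files per library. TECs were enriched with beads against prominin-1, a surface protein, and the study describes its libraries as biological replicates, while the labels do not tie libraries to animals.

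Fibrinogen is the soluble plasma protein that thrombin turns into fibrin, the mesh of a blood clot. Each molecule is a dimer of an alpha, a beta and a gamma chain joined by disulfide bonds, and the chains are assembled in the endoplasmic reticulum before secretion. Hepatocytes are the main source of plasma fibrinogen and raise all the chains in the acute-phase response, in which IL-6 acts through the transcription factor STAT3. Injured renal tubular epithelium is also known to express the fibrinogen genes.

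The genes lie side by side on mouse chromosome 3 (build GRCm38), within 42140 bases. Fgg (ENSMUSG00000033860.13) spans chr3:83007724-83015049 on the plus strand. Fga (ENSMUSG00000028001.16) spans chr3:83026076-83033627 on the plus strand, 11026 bases beyond the end of Fgg. Fgb (ENSMUSG00000033831.5) spans chr3:83040141-83049863 on the minus strand, so its 3' end faces that of Fga across 6513 bases. None of the 2961 stretches of 50 bases in Fga transcripts, and none of the 3761 in Fgb, occurs in a transcript of another gene. In Fgg, 66 of 2043 stretches occur in a transcript of another gene, which the count did not name. By its coordinates, the antisense long noncoding RNA gene Gm30097 overlaps the first 765 bases of Fgg. The library kit is not stated to keep strand, so reads of the overlap cannot be told apart, but Gm30097 itself was assigned a median of 8 reads and at most 225 reads per library.

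Because the chains moved together in the TEC libraries, the 250 bases before the start site of each gene are shown from RefSeq (GRCm38.p6), read 5' to 3' on the strand of the gene. They cover chr3:83025903-83026152 for Fga, chr3:83049864-83050113 for Fgb on the minus strand and chr3:83007474-83007723 for Fgg. The RefSeq start of Fga lies 77 bases downstream of the start in the gene annotation used for counting, so the end of its window falls inside that annotated transcript. Capitals mark CTGGGAA, the letters of the IL-6 response element of fibrinogen genes, and GTTAAT or its reverse complement, the letters of an HNF1 motif.
Fga promoter: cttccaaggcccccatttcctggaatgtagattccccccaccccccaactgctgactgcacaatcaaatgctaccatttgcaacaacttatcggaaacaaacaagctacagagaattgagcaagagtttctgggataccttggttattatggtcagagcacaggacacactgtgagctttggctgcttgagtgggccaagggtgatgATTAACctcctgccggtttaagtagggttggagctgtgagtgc
Fgb promoter: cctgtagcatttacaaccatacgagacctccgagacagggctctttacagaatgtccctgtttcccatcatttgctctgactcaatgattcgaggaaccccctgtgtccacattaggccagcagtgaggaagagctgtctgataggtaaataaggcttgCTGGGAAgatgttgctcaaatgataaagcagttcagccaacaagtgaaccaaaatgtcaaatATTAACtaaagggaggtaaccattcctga
Fgg promoter: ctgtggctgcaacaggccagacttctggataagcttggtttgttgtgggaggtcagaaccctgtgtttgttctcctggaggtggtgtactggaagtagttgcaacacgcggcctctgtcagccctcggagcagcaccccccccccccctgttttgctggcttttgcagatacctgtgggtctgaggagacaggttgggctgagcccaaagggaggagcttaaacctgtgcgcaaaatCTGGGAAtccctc
The letters CTGGGAA began at -91 in Fgb and at -13 in Fgg, counted from the start site, and were not in the Fga window on either strand. They occurred in 9.10% of all 32851 RefSeq windows of the same length. The HNF1 letters GTTAAT were present on the opposite strand in Fga, from -43, and in Fgb, from -29, against 6.43% of all windows, and not in Fgg. STAT-like letters, TTCNNNGAA, were found in Fga and Fgb (7.02% of all windows) and C/EBP-like letters, TTNNGNAA, at 1 place in Fga and 2 in Fgb (36.8% of all windows), the second of which overlaps an E-box in Fgb. The E-box letters, CANNTG, occurred 3 times each in Fga and Fgb, against 66.2% of all windows. None of the windows held TATAA, which 22.8% of all windows hold. Fgg thus carried CTGGGAA and none of the other letters searched on either strand. These matches are letters in a window and say nothing of binding.

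Before the levels are compared, a pair of TEC libraries has to be set apart. The library labelled TECs sham control 1 held 1908 reads of Havcr1, the tubular injury marker KIM-1, against at most 27 in any other sham TEC library, and 1217 reads of Lcn2, which encodes the injury marker NGAL, against at most 21. It did not carry all the genes of injury: Sox9, a regulator of tubular repair, stood at 0.0831 CPM (read counts scaled to library size by TMM), and the mesenchymal filament gene Vim at 0. Krt20, an epithelial keratin, stood at 16.0 CPM, above the other sham libraries (at most 1.36 CPM) but below every IRI library (at least 384 CPM). The library labelled TECs IRI RIPC 3 was the reverse. Its Krt20 (1486 CPM) and Sox9 (392 CPM) were the highest of all TEC libraries, while Havcr1 stood at 79.9 CPM, against 386 to 720 CPM in the other IRI libraries, and Lcn2 at 4 reads. These libraries were singled out after the data were seen, for their fibrinogen reads as well as for Havcr1, Lcn2 and Spp1. Values of those genes without them therefore describe the remaining libraries and support no direction, since the choice removed the highest sham and the lowest IRI library for each chain. For other genes that run with injury, calls made without the pair are no independent test either. Results for the chains and counts for the gene lists in TECs are given with and without this pair.

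Fga, the alpha chain gene, was expressed in all 11 TEC libraries. In the sham control group it stood at 481, 9.27 and 10.5 TPM (a level per length, scaled to the library total) in libraries 1 to 3. In sham RIPC it stood at 17.3, 6.76 and 5.83 TPM. After IRI the levels were 196 and 86.3 TPM in the control libraries and 107, 153 and 3.37 TPM in the RIPC libraries. With all libraries the groups overlapped. Without the 2 libraries set apart, which were chosen partly for these levels, every IRI library lay above every sham library. That separation follows in part from the choice, and how many of all genes separate in the same way was not counted.

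Fgb, the beta chain gene, was the lowest of the chains in all 11 TEC libraries, counted per length, and was under 2 TPM in 5 of the 6 sham libraries. It stood at 41.2, 0 and 0.228 TPM in sham control and at 0.959, 1.21 and 0.115 TPM in sham RIPC. After IRI it reached 58.3 and 31.7 TPM in the control libraries and 62.8, 54.9 and 1.78 TPM in the RIPC libraries. The library at 0 had 1320 reads of Fga and 975 of Fgg, and detected fewer genes than any other library, 13870, although it was the deepest.

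Fgg, the gamma chain gene, followed Fga closely. Its levels were 602, 8.11 and 2.90 TPM in sham control and 17.4, 7.18 and 14.6 TPM in sham RIPC. After IRI they were 353 and 139 TPM in the control libraries and 223, 332 and 3.88 TPM in the RIPC libraries. In the highest IRI library, IRI control 1, Fgg ranked 159th by TPM among 22224 genes with reads, Fga 323rd and Fgb 1034th.

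**Figure D1:**
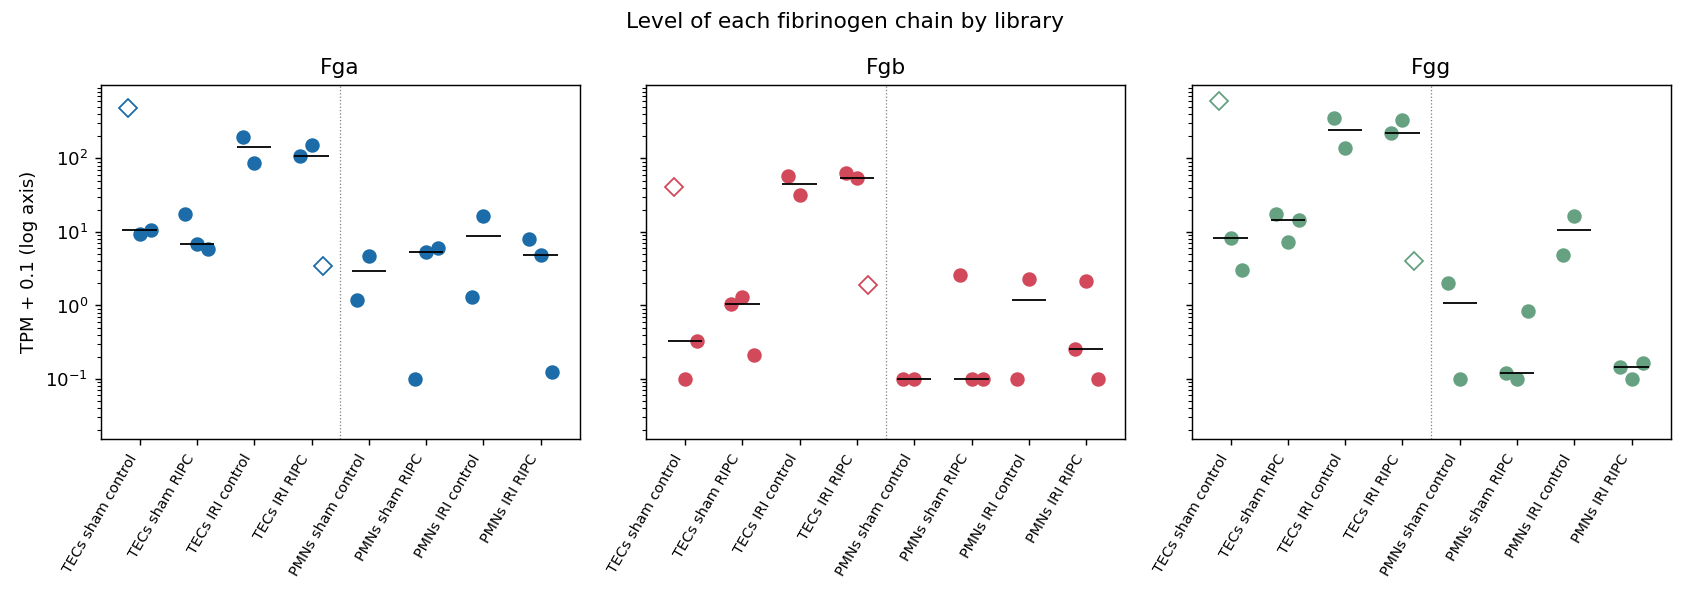
Level of Fga, Fgb and Fgg in each of the 21 libraries, as TPM + 0.1 on a log axis, by group; each point is a library, horizontal lines are group medians and open diamonds are TECs sham control 1 and TECs IRI RIPC 3. With that pair singled out partly by these levels, filled TEC points after IRI lie above all filled sham points for each chain, and PMN points reach at most 16.4 TPM.

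The question of whether the chains change with injury was addressed by comparing all 5 IRI with all 6 sham TEC libraries, averaging the control and RIPC groups. With every library in the fit, none of the 3 chains passed the test (edgeR quasi-likelihood F test, Benjamini-Hochberg adjusted over 25917 genes), of which 1.4% passed and 3893 had an unadjusted p under 0.05. Fga differed by 1.30 on the log2 scale (SE 0.94, adjusted p = 0.576), with an approximate 95% interval from -0.55 to 3.15. The 95% intervals here and below use a normal quantile and are narrower than the F test implies. Fgb differed by 3.55 (SE 1.41, unadjusted p = 0.0244, adjusted p = 0.266), with an interval from 0.78 to 6.33. Fgg differed by 1.90 (SE 1.07, adjusted p = 0.435), with an interval from -0.20 to 4.01.

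That outcome rested on the library labelled sham control 1. In the fit that left it out, the difference was 3.50 for Fga (SE 0.74, adjusted p = 0.0318), 7.24 for Fgb (SE 1.33, adjusted p = 0.0163) and 4.61 for Fgg (SE 0.87, adjusted p = 0.0186) on the log2 scale, where 1.5% of all genes passed. Since this was the sham library with the highest chains, at 4883 CPM in sum against 49.2 to 132 CPM in the others, these values show how far the outcome depends on it and are no independent test. Leaving out IRI RIPC 3 alone changed no call, with differences of 1.62 for Fga, 3.87 for Fgb and 2.23 for Fgg and adjusted p of 0.399, 0.204 and 0.303. Without both, the differences were 3.84 for Fga (SE 0.44), 7.51 for Fgb (SE 1.21) and 5.02 for Fgg (SE 0.46), given as a description with no test. In that fit 2.96% of the 24503 genes tested passed. In these 9 remaining libraries the mean level of Fga was 9.94 ± 4.53 TPM (SD, n = 5) after sham and 135 ± 48.9 TPM (n = 4) after IRI. Fgb stood at 0.503 ± 0.546 TPM after sham and 51.9 ± 13.9 TPM after IRI, and Fgg at 10.0 ± 5.87 and 262 ± 99.6 TPM. In a bulk sample, more cells that express a gene and more RNA per cell cannot be told apart.

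**Figure D2:**
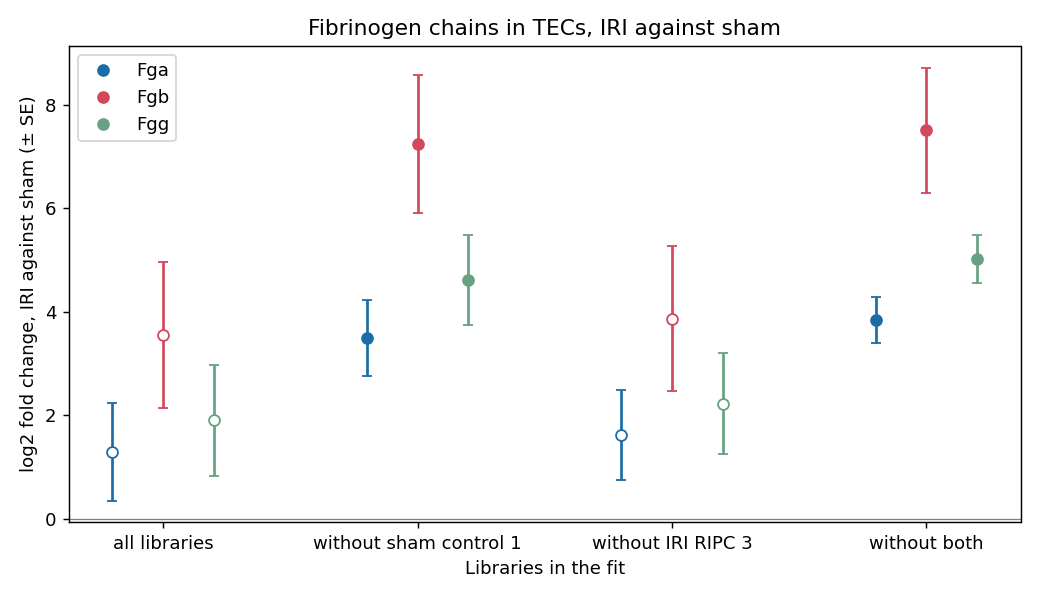
Difference between IRI and sham in TECs for each chain, as a log2 fold change with its SE, for the fit to all libraries and the fits without TECs sham control 1, without TECs IRI RIPC 3 and without both; filled points have an adjusted p under 0.05, which describes those fits and is no independent test, as the libraries left out were chosen partly for their chain levels. The filled points are those of the fits without sham control 1, where Fgb lies highest at 7.24 and 7.51.

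The level of the chains ran with Havcr1 over the TEC libraries, but the pair set apart differed from the rest in the proportion of the chains to Havcr1. Summed over the 3 genes, the chains stood at 49.2 to 132 CPM in the other 5 sham libraries, where Havcr1 was at most 1.03 CPM, and at 1387 to 2563 CPM in the other 4 IRI libraries. Sham control 1 and IRI RIPC 3 had nearly the same Havcr1, 79.3 and 79.9 CPM, with 4883 and 54.3 CPM of the chains. The chains of sham control 1 were thus above those of every IRI library at a Havcr1 level under each of them.

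**Figure D3:**
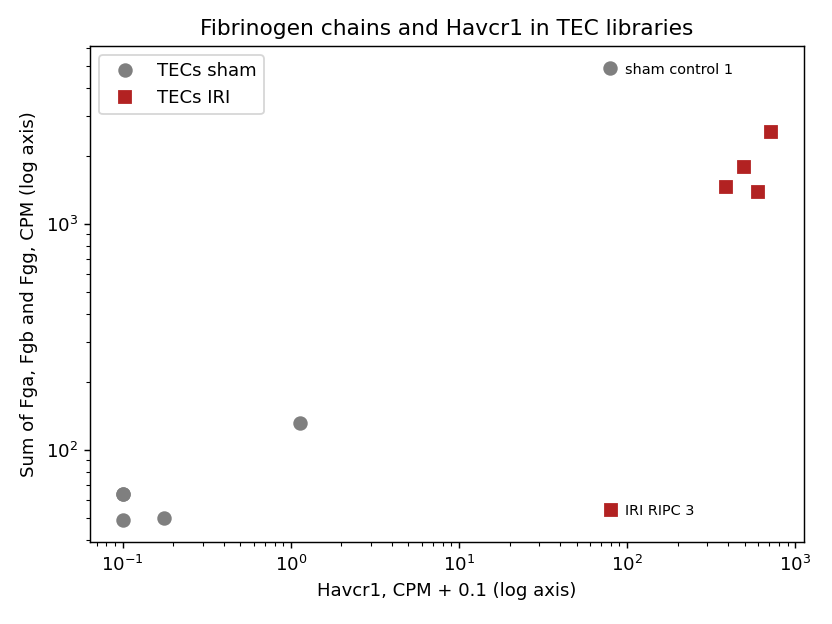
Sum of the fibrinogen chains against Havcr1 in the 11 TEC libraries, both in CPM on log axes (0.1 added to Havcr1); grey circles are sham and red squares IRI. Sham control 1 lies at 4883 CPM and IRI RIPC 3 at 54.3 CPM of the chains at about the same Havcr1.

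The share of Fgb among the chains differed between sham and IRI. Taken per length, as a percent of the sum over the 3 genes, Fgb made up 13.6 ± 4.26% (SD, n = 5) of the chains after IRI and 2.76 ± 2.90% (n = 6) after sham. The groups did not overlap: the sham libraries ran from 0 to 8.01% and the IRI libraries from 9.60 to 19.7%. Apart from sham control 1, the sham shares rest on few reads of Fgb, 0 to 316 per library. These come from cDNA amplified by PCR and are not counts of independent molecules, so each such share is imprecise. The difference of 10.8 percentage points had an exact two-sided permutation p of 0.00433 over 462 arrangements (adjusted p = 0.0130 over the 3 chains), higher in 5 of 5 IRI libraries. Both libraries set apart kept to their label in this measure: sham control 1 had an Fgb share of 3.67% in spite of its high level, and IRI RIPC 3 one of 19.7%, the highest of all, in spite of its low level. Without both, the difference was 9.44 points (exact permutation, adjusted p = 0.0476), which is no independent test, as the pair was chosen partly for its chain reads.

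The share of Fga was 31.7 ± 4.10% (n = 5) after IRI and 49.1 ± 16.1% (n = 6) after sham, a difference of -17.4 points (exact permutation p = 0.0281, adjusted p = 0.0422). The sham libraries varied widely, from 28.3 to 77.1%, and overlapped the IRI range of 27.2 to 37.3%. This difference lost its call in 10 of the 11 cases with 1 library left out (adjusted p of 0.0595 to 0.10), with the replicate number as a block (adjusted p = 0.0694) and without both libraries set apart (adjusted p = 0.0833). The share of Fgg, the most abundant chain in all the IRI libraries, was 54.7 ± 7.10% after IRI and 48.1 ± 16.0% after sham (exact permutation p = 0.463). Fgg exceeded Fga by 1.15 to 2.17 times in the IRI libraries, while in sham the ratio ran from 0.275 to 2.51.

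**Figure D4:**
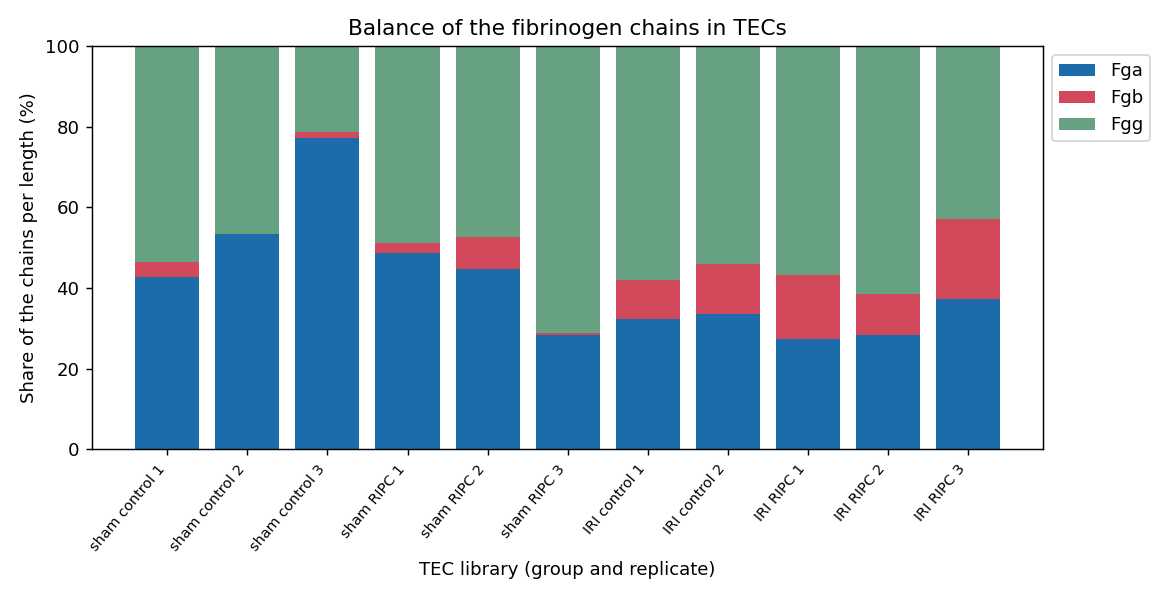
Share of Fga, Fgb and Fgg in the sum of the chains in each of the 11 TEC libraries, in percent, from reads divided by effective length; each bar is a library. The Fgb part spans 9.60 to 19.7% in the 5 IRI bars and 0 to 8.01% in the 6 sham bars.

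Each of Fga and Fgg has a pair of annotated transcripts, while Fgb has 1 of 3810 bases. Fga-201 (2083 bases) carried a median of 97.4% of Fga in TECs, and Fga-202 (2587 bases) a median of 2.56% and at most 35.0%. Fgg-201 (1695 bases) carried a median of 93.1% of Fgg, and Fgg-202 (1741 bases) between 0 and 53.2%. The highest minor shares, 35.0% of Fga-202 in sham RIPC 2 and 53.2% of Fgg-202 in sham control 3, were in libraries with few reads of the gene, 780 of Fga and 224 of Fgg.

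The study was designed around RIPC. In TECs after sham, the comparison of RIPC with control rested on sham control 1. With all libraries, the chains were lower in RIPC by -4.28 (Fga, adjusted p = 0.708), -4.38 (Fgb, adjusted p = 0.708) and -4.23 (Fgg, adjusted p = 0.708) on the log2 scale, with unadjusted p of 0.00990, 0.0487 and 0.0199. None of the 3 passed, as 0% of all 25917 genes passed in the edgeR test, with 1175 at an unadjusted p under 0.05. Without sham control 1 the differences turned to 0.03 for Fga, 2.92 for Fgb and 1.10 for Fgg (adjusted p of at least 0.874). In the remaining sham libraries, Fga stood at 9.27 and 10.5 TPM in control and 5.83 to 17.3 TPM in RIPC, and the groups overlapped.

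After IRI, no chain passed the test between RIPC and control (0 of 3 chains, 0.00386% of all genes). The differences were -1.04 for Fga with a 95% interval from -3.76 to 1.69, -0.56 for Fgb from -4.40 to 3.28, and -0.75 for Fgg from -3.82 to 2.32. Without IRI RIPC 3 they were -0.45, 0.02 and -0.14, and the 2 remaining RIPC libraries lay between the 2 control libraries for Fga and Fgg. With 2 libraries in the control group, these intervals are wide and still allow large differences, down to -4.40 on the log2 scale for Fgb. The difference between the RIPC effects after IRI and after sham was 3.24 for Fga, 3.82 for Fgb and 3.49 for Fgg, and again 0 of 3 chains and 0% of all genes passed, with 1869 genes at an unadjusted p under 0.05 (edgeR). Its sign turned without sham control 1, to -1.03, -3.45 and -1.81.

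PMNs held few and uneven reads of the chains. More than 3 reads of all the chains were present in 1 of 10 PMN libraries, of 2 chains in 5 libraries and of 1 chain in 4, whereas 10 of 11 TEC libraries held all of them. Fga stood at 1.07 and 4.67 TPM in sham control, 0, 5.16 and 5.87 TPM in sham RIPC, 1.19 and 16.2 TPM in IRI control and 7.90, 4.71 and 0.0248 TPM in IRI RIPC. Fgb was at 0 in 6 of 10 PMN libraries and otherwise stood at 2.48 TPM in sham RIPC 1, 2.18 TPM in IRI control 2, and 0.155 and 2.06 TPM in IRI RIPC 1 and 2. Fgg stood at 1.94 and 0 TPM in sham control, 0.0195, 0 and 0.739 TPM in sham RIPC, 4.81 and 16.4 TPM in IRI control and 0.0478, 0 and 0.0660 TPM in IRI RIPC.

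The only PMN library with all the chains, IRI control 2, was the highest for Fga and for Fgg. In several libraries a single chain carried nearly everything, such as sham RIPC 1, with 398 reads of Fgb, 0 of Fga and 1 of Fgg, and sham control 2, with 338 reads of Fga and 0 of the others. The reads come from cDNA amplified by PCR, so reads are not counts of independent molecules.

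Between IRI and sham in PMNs, no chain passed the test (0 of 3, against 0.416% of the 25002 genes tested), with log2 differences of 0.81 for Fga (95% interval -2.49 to 4.11), 5.20 for Fgb (-1.02 to 11.42) and 0.49 for Fgg (-3.42 to 4.40). The value for Fgb compares groups with libraries at 0 and depends on the prior count of the fit. RIPC against control after sham passed for 0 of 3 chains (0.004% of all genes), with differences of 0.41 for Fga and -1.78 for Fgg, while Fgb was at 0 in both control libraries and in all but 1 of the RIPC libraries. After IRI, Fgg was lower in RIPC by -8.06 (unadjusted p = 0.0327, adjusted p = 0.920), with 266 and 1058 reads in control and 3, 0 and 4 in RIPC. Fga differed by -1.0 and Fgb by -0.50, and 0 of 3 chains passed, as did 0% of all genes, with 680 genes at an unadjusted p under 0.05 (edgeR). The interaction was -1.41 for Fga and -6.28 for Fgg, and none of the 3 chains passed (0% of all genes, 1434 genes at an unadjusted p under 0.05, edgeR).

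The PMN libraries carried the markers of their label, with S100a8 and S100a9, the calprotectin genes of neutrophils, between 2075 and 9600 CPM, against at most 26.2 CPM in TECs. They also carried kidney genes. Summed over 12 proximal tubule markers, PMNs held 1270 to 11439 CPM after sham and 573 to 935 CPM after IRI, against 2738 to 14976 CPM in TECs. All 12 of these markers were above 3 reads in the median PMN library. Havcr1 was at most 0.0484 CPM in sham PMNs and reached 23.4 CPM in IRI control 2 and 27.9 CPM in IRI RIPC 2. Their part in the PMN reads of the chains was not tested.

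Compared between the cell types in a single fit of all 21 libraries, Fgg was higher in TECs than in PMNs, by 7.19 on the log2 scale after sham (SE 1.85, adjusted p = 0.0388) and by 8.61 after IRI (SE 2.0, adjusted p = 0.0203). Fga was higher by 3.88 after sham (adjusted p = 0.198) and 4.37 after IRI (adjusted p = 0.194) and Fgb by 7.50 (adjusted p = 0.195) and 5.81 (adjusted p = 0.287), and these did not pass. So 1 of 3 chains passed in each comparison, against 2.62% of the 31769 genes tested after sham and 2.67% after IRI. After sham the call for Fgg was lost without sham control 1 (4.44, adjusted p = 0.115) and without both libraries set apart (4.44, adjusted p = 0.0832). After IRI the call was lost without PMNs IRI control 1 (8.22, adjusted p = 0.0571). The change from sham to IRI was also compared between the cell types: 0 of 3 chains and 0% of all genes passed, with 3102 genes at an unadjusted p under 0.05 (edgeR), and the interaction was 0.49 for Fga, -1.69 for Fgb and 1.43 for Fgg.

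Hepatocytes and platelets are the cells best known to carry fibrinogen RNA or protein, and their markers were present in TECs to different degrees. Ahsg, a plasma glycoprotein gene of the liver, was at 0 in 10 of 11 TEC libraries, and Apoa1, the main protein of high-density lipoprotein, at 0 in 8. Alb, the albumin gene, had 0 to 378 reads and was at 0 in 5. Apoh, a plasma glycoprotein gene, had 0 to 404 reads and was at 0 in 3. The 404 reads were in sham control 1, against at most 6 in the other sham libraries and 347 after IRI. Ahsg, Apoa1 and Alb were at 0 in sham control 1. Over 22 hepatocyte markers the summed level was 562 to 2282 CPM after sham and 144 to 429 CPM after IRI, and in sham control 1 it was 1410 CPM. Up to 2144 CPM of it came from Cyp2e1, a cytochrome also expressed in the kidney. All 22 markers had more than 3 reads in some TEC library, and 12 in the median library. Of 21 tested, 1 fell after IRI (Cyp2e1, by 2.62 on the log2 scale, adjusted p = 0.0273) and 0 rose, and without both libraries set apart 1 of 19 fell, again Cyp2e1. The part of hepatocyte RNA in the chains was not tested.

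Pf4 and Ppbp, the platelet chemokine genes, were at 0 in 10 of 11 TEC libraries each, with 55 and 32 reads in the remaining one. In PMNs, Pf4 had 242 to 4716 reads and Ppbp 0 to 3073. Over 10 platelet markers the sum was 2.0 to 22.5 CPM in TECs and 28.5 to 348 CPM in PMNs. None of the 5 platelet markers tested in TECs passed between IRI and sham (edgeR, 0 at an unadjusted p under 0.05), with all libraries or without both set apart. Neutrophil markers summed to 1.57 to 33.0 CPM in sham TECs and 35.5 to 164 CPM in IRI TECs, and to 29.1 CPM in sham control 1. With both libraries left out, 1 of 7 neutrophil markers tested rose with IRI, S100a8 (7.65, SE 1.66, adjusted p = 0.0275), against 0 of 7 with all libraries. It had 0 to 6 reads in the remaining sham libraries and 56 to 562 in the remaining IRI libraries. The part of neutrophil RNA in the chains was not tested.

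The other genes of the clotting pathway were counted in the same comparison. Of 12 genes of fibrin formation (the coagulation factors that lead to thrombin and cross-link fibrin), 9 were tested in TECs and 0 passed between IRI and sham, with a median difference of 0.17 on the log2 scale against 0.15 over all 25917 genes tested. Of 8 anticoagulant proteins, 7 were tested, 0 passed and the median was 0.14. In the fit without the pair set apart, 0 of 9 and 1 of 7 passed. The 1 was Pros1, the gene of protein S, higher by 9.67 (adjusted p = 0.0212). With all libraries Pros1 differed by 3.49 and did not pass (edgeR, adjusted p = 0.411).

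Among genes of fibrinolysis, which dissolves fibrin, 3 of 11 tested rose after IRI and 0 fell, against 1.4% of all genes called in either direction, with a median of 2.92. They were S100a10 (2.92, SE 0.51, adjusted p = 0.0131) and Anxa2 (4.83, SE 0.96, adjusted p = 0.0254), whose proteins form the cell-surface complex that assembles plasminogen and its activator, and Serpine2 (3.99, SE 0.90, adjusted p = 0.0450), an inhibitor of thrombin and of plasminogen activators. Without both libraries set apart, where 2.96% of all genes were called, 4 rose and 1 fell, the plasmin inhibitor gene Serpinf2 (-8.64, adjusted p = 9.39e-05). With all libraries Serpinf2 differed by -3.41 and did not pass (edgeR, adjusted p = 0.247). Plat, the gene of tissue plasminogen activator, was higher without both (6.26, adjusted p = 0.00417), but did not pass with all libraries (4.03, adjusted p = 0.132). Its reads were 41495 and 15549 in IRI control and 37577, 1061 and 189 in IRI RIPC, against 12 to 2607 in sham, so it was low in IRI RIPC 3 as the chains were, but also in IRI RIPC 2, where the chains were high.

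Of 11 fibrinogen receptors (integrins and other surface proteins that bind fibrinogen), all were tested in TECs and 0 passed (edgeR, 3 at an unadjusted p under 0.05, median 0.79). Of 9 fibrinogen-like genes, 6 were tested and 0 passed (1 at an unadjusted p under 0.05, median 0.81). With both libraries left out, 0 of 11 and 0 of 6 passed (edgeR, 2 and 1 at an unadjusted p under 0.05). Of 12 genes for the assembly and secretion of fibrinogen, mainly chaperones of the endoplasmic reticulum, 10 were tested, 0 passed (6 at an unadjusted p under 0.05) and the median was -1.19, opposite in sign to the chains. Without both libraries set apart, 3 of these fell and 0 rose: Hspa5 by 2.10, Calr by 1.81 and Hsp90b1 by 1.72 on the log2 scale (adjusted p of 0.00443, 0.0224 and 0.0227), which encode the chaperones BiP, calreticulin and GRP94.

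In the IL-6 family pathway that drives the chains in liver, 0 of 19 genes tested passed in TECs (edgeR, 5 at an unadjusted p under 0.05, median 1.57), and 0 of 9 transcription factors of the fibrinogen genes (3 at an unadjusted p under 0.05, median 0.20). Without both libraries set apart, 4 of 18 and 1 of 9 rose, where 2.96% of all genes were called. Stat3, which is in both lists, was among them (2.06, SE 0.41, adjusted p = 0.0173), and with all libraries its difference was 1.69 (adjusted p = 0.0726). Stat3 stood at 24.8 to 149 CPM in the 6 sham libraries and 167 to 304 CPM in the 5 IRI libraries. Its highest sham value was in sham control 1, as for the chains, against at most 60.7 CPM in the other sham libraries. How many of all genes separate the groups in this way was not counted. The other genes that rose without both were Osmr, a receptor subunit for oncostatin M (8.42, adjusted p = 0.00825), the cytokine gene Clcf1 (9.46, adjusted p = 0.0277) and Myc (2.01, adjusted p = 0.0209). With all libraries these differed by 2.77, 3.89 and 1.57 and did not pass (edgeR, adjusted p of 0.401, 0.294 and 0.136). Among 17 acute-phase genes tested, 1 rose, Serpina3n, a protease inhibitor (10.01, SE 2.12, adjusted p = 0.0410). It had 1461 and 2024 reads in IRI control, 5372, 0 and 242 in IRI RIPC and at most 78 in sham, and did not pass without both libraries (adjusted p = 0.0544), where Lcn2, one of the genes by which the libraries were singled out, differed by 9.78 and Cfb, the gene of complement factor B, fell (-2.18, adjusted p = 0.0361).

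Markers of the tubule were tested in the same fit. Of 12 proximal tubule markers 6 fell, among them the lactate transporter Slc5a12 (-6.91, adjusted p = 0.00184), the organic anion transporter Slc22a6 (-2.80, adjusted p = 0.0174) and the dicarboxylate transporter Slc13a3 (-3.72, adjusted p = 0.0197). Of 11 injured tubule markers 3 rose: Krt20 (10.24, adjusted p = 0.00466), Vim (8.14, adjusted p = 0.00718) and Sox9 (6.23, adjusted p = 0.0282). Havcr1 differed by 7.23 (adjusted p = 0.0536) with all libraries and 12.25 without both set apart, given with no test. Without both, 8 of 12 proximal tubule markers fell, and 5 of 11 injured tubule markers passed, among them Havcr1, Lcn2 and Spp1, by which the libraries were singled out. For markers of other cells, 0 of 10 distal tubule and collecting duct genes, 0 of 7 endothelial, 0 of 7 fibroblast, 0 of 9 macrophage and 0 of 7 neutrophil genes passed in TECs, with 3, 3, 4, 2 and 5 at an unadjusted p under 0.05 (edgeR). With the pair left out, the count stayed at 0 for all but the neutrophil list, where S100a8 passed as given above, with 3, 4, 2, 3 and 5 at an unadjusted p under 0.05.

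In PMNs, where the chains were scarce, 1 of 11 genes of fibrin formation rose after IRI, against 0.416% of all genes called, F10, the gene of coagulation factor X (5.74, SE 0.46, adjusted p = 0.00438), with 3994 to 8454 reads after IRI and 4 to 1475 after sham. Of 11 fibrinolysis genes 1 rose, Plaur, the urokinase receptor (2.56, SE 0.35, adjusted p = 0.0255). The IL-6 family gene Pim1, a kinase gene, rose (2.28, adjusted p = 0.0178), as 1 of 20, and so did Cd44 (2.75, adjusted p = 0.0209), a receptor of hyaluronan listed with the injured tubule markers, and Il1r2 (3.17, adjusted p = 0.0489), a decoy receptor for IL-1. The number of genes called in PMNs was itself unstable, 104 as fitted and 5 to 393 with 1 library left out. None of the 11 fibrinogen receptors passed in PMNs (edgeR, 1 at an unadjusted p under 0.05).

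Over the 11 TEC libraries, Fga and Fgg ran most closely together, with a Pearson r of 0.961 for log2(CPM + 1). Fgb and Fgg had an r of 0.895 and Fga and Fgb one of 0.879. These are descriptions over libraries that include both sham and IRI, so any gene that separates them shares part of it. On this scale, fitted within TECs, the genes most like the sum of the chains were Olfr832, an olfactory receptor gene of at most 17.6 CPM (r = 0.957), 2200002D01Rik (0.948), the noncoding Foxd2os (0.942), Capg, an actin-capping protein gene (0.940), and Fth1, the ferritin heavy chain gene (0.935). They were followed by Lcn2 (0.930), the pheromone receptor gene Vmn2r19 (0.928), Cirbp, a cold-inducible RNA-binding protein gene (0.927), Tubb2a, a tubulin gene (0.926), and Spp1, the osteopontin gene (0.923). Fth1 was the most abundant of these, at 6985 to 27061 CPM. Without both libraries set apart, r ranged from 0.896 for Tubb2a to 0.967 for 2200002D01Rik. Havcr1 had an r of 0.832 with the sum of the chains over the same 11 libraries.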

How the data were processed

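RNA-Seq was measured in 21 libraries. The authors trimmed reads (Trim Galore 0.6.4) and quantified transcripts with Salmon 1.0.0 (build mm10, per the labels), and the deposited values are estimated counts and TPM per transcript, in 2 files per library whose difference is not given in the sources used here. The estimated counts of both files were summed per library and then per gene with Gencode M21, which left out 0.139% to 0.255% of reads, and were rounded to whole numbers. Genes on sex chromosomes and the mitochondrial genome were removed, leaving 50406. TPM was recomputed from summed reads and mean effective length. The depth was 20881334 to 51624602 reads per library, summed over both files. The files held nearly equal reads of the chains, for example 5496 and 5477 of Fgb in TECs sham control 1. Whether both hold the same fragments was not tested. If they do, the depth, read counts and read thresholds given here count each fragment in both files.

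Differences were tested with edgeR 4.0.16 (quasi-likelihood F test, TMM scaling, filterByExpr, 1 mean per group, a fit per cell type and a joint fit), with Benjamini-Hochberg adjustment over all genes tested and a threshold of 0.05. Chain shares were compared by two-sided exact permutation tests over libraries with at least 30 reads of the chains. Samples were grouped by their labels. Alternatives used DESeq2 1.42.0 with apeglm 1.24.0, other filters, scalings and sample sets, and libraries left out in turn. The fits were tested on simulated data. R 4.3.3 and Python 3.11.15 were used.

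The members and gene lists were chosen with earlier results of these data known. Genes named are the 3 chains, up to 3 genes per direction and list with the smallest adjusted p for IRI against sham in each cell type, the markers Alb, Apoa1, Ahsg, Apoh, Pf4 and Ppbp, and the 10 genes whose log2(CPM + 1) correlated best with the summed chains over TEC libraries. Genes named outside this rule were chosen after their values were seen. Protein sequences were not used here.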

Additional observations from a re-analysis of the deposited data

How the results depend on the processing

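Of 695 comparisons of a result with an alternative, 601 kept their direction and their side of the threshold, 20 lost the call, 27 gained one and 47 changed direction or were estimated at 0. DESeq2 size factors, an offset for transcript length and robust dispersion estimates changed no direction and no call. Each file of a library alone changed none either, but that check could hardly fail. The files held nearly equal reads of each chain, with 49.4 to 55.6% in the first file (median 50.1%, at least 30 reads). Values are log2 differences unless stated. Without a filter on low counts, calls were gained for IRI against sham in TECs at 1.29 (Fga, adjusted p = 0.0264), 3.55 (Fgb, adjusted p = 3.09e-11), 1.90 (Fgg, adjusted p = 3.90e-05), RIPC after sham at -4.28 (Fga), -4.38 (Fgb), -4.24 (Fgg), the interaction at 3.23 (Fga), 3.81 (Fgb), 3.48 (Fgg), and TECs against PMNs at 3.89 (Fga), 7.50 (Fgb) after sham and 4.33 (Fga), 5.79 (Fgb) after IRI. Their adjusted p ran from 3.09e-11 to 0.0273 within TECs, and the cause was not tested. DESeq2 gained calls for TECs against PMNs at 3.87 (Fga), 14.09 (Fgb) after sham and 4.29 (Fga), 5.74 (Fgb) after IRI, and for Fgb in PMNs at 11.86 (IRI against sham), 23.65 (RIPC after sham) and -24.08 (interaction), where groups have libraries at 0. DESeq2 with apeglm shrank Fga, Fgb and Fgg in PMNs, RIPC after IRI, to 0 at 4 decimals, which is no change of sign. Without both libraries set apart, an alternative added after the data were seen and chosen partly for the chain levels, IRI against sham was 3.84 (Fga), 7.51 (Fgb), 5.02 (Fgg), past the threshold but no independent test. RIPC after sham turned to 0.20 (Fga), 2.88 (Fgb), 1.40 (Fgg), RIPC after IRI to 0.0452 (Fgb), the interaction to -0.63 (Fga), -2.84 (Fgb), -1.53 (Fgg) and the difference between cell types to 2.23 (Fgb), Fgg in TECs against PMNs after sham lost its call at 4.44, and the Fga share lost its call at -20.04 percentage points. In the control groups alone, IRI against sham in TECs turned to -0.32 (Fga) and the difference between cell types to -1.81 (Fga) and -3.44 (Fgg). In the RIPC groups alone, IRI against sham in PMNs turned to -0.16 (Fgb) and -2.65 (Fgg), and the difference between cell types to 5.60 (Fgb). With reads not divided by length, the Fgg share turned to -1.08 points. With the replicate number as a block, IRI against sham in TECs was 1.12 (Fga), 3.61 (Fgb), 1.48 (Fgg) with no call, RIPC after IRI turned to 0.12 (Fgb, TECs), 0.21 (Fga, PMNs) and 0.66 (Fgb, PMNs), the PMN interaction to 0.13 (Fga), and the Fga share of -17.4 points lost its call (adjusted p = 0.0694). The replicate block changed no other call. Libraries with the same number shared only a number: their deviations correlated between -0.106 and 0.139 in TECs and -0.0234 and 0.0304 in PMNs. Leaving out each library in turn, IRI against sham in TECs ran over 0.96 to 3.50 (Fga), 3.26 to 7.24 (Fgb), 1.55 to 4.61 (Fgg), RIPC after sham over -4.94 to 0.03 (Fga), -4.97 to 2.92 (Fgb), -4.81 to 1.10 (Fgg), RIPC after IRI over -1.03 to 0.0227 (Fgb) and the interaction over -1.03 to 3.90 (Fga), -3.45 to 4.44 (Fgb), -1.81 to 4.11 (Fgg). In PMNs, IRI against sham ran over -0.62 to 1.52 (Fga), -0.0605 to 10.32 (Fgb), -0.10 to 4.82 (Fgg), RIPC after sham over -0.29 to 1.74 (Fga), 0.00 to 10.82 (Fgb), -6.18 to 6.79 (Fgg), RIPC after IRI over -1.89 to 1.95 (Fga), -3.77 to 10.06 (Fgb) and the interaction over -2.69 to 1.51 (Fga). TECs against PMNs ran over 3.86 to 12.67 (Fgb), 4.44 to 11.63 (Fgg) after sham and 8.22 to 9.22 (Fgg) after IRI, where the call was lost without PMNs IRI control 1 (adjusted p = 0.0571), and the difference between cell types over -0.24 to 2.70 (Fga), -6.86 to 3.56 (Fgb), -3.01 to 4.18 (Fgg). The Fga share ran from -21.5 to -11.8 points and kept its call in 1 of 11 cases, and the Fgb share kept its call in 11 of 11. The calls gained for IRI against sham in TECs came without sham control 1. Genes called for IRI against sham in TECs numbered 363 as fitted, 2234 with DESeq2, 1289 without a filter, 726 without both libraries set apart, 25 in the RIPC groups alone and 1 in the control groups alone, and 92 to 714 with 1 library left out. In PMNs they numbered 104 as fitted, 1955 with DESeq2, 971 without a filter, 62 in the RIPC groups alone, 0 in the control groups alone, 23 with the replicate block and 5 to 393 with 1 library left out. Counts for RIPC against control also depended on the method. DESeq2 with apeglm, at the study's threshold of an S value below 0.01, called 62 genes in TECs after sham and 246 after IRI. In PMNs it called 528 after sham and 40 after IRI. The fits with edgeR called 0 and 1 in TECs and 1 and 0 in PMNs. Groups hold 2 or 3 libraries, and the biological coefficient of variation estimated by edgeR was 1.54 in TECs and 1.65 in PMNs. The chains together had 1155 to 117510 reads per TEC library and 6 to 2874 per PMN library.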
